A study of Mus musculus with 32 samples.

Results

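The Ms4a family genes Ms4a4a, Ms4a4c, Ms4a6b, Ms4a6c, Ms4a6d and Ms4a7 were followed through every group of a study of mouse bone marrow-derived macrophages, which are macrophages grown from marrow cells in culture. The genes were looked up in the count table by the Entrez identifier of their symbol. Of the 6 members, 5 had a row among the 24885 identifiers in the table; Ms4a4a had no matching row and is not analysed here. All 5 passed the filter on low counts and entered every test. MS4A proteins cross the membrane in 4 spans, sit beside other receptors and, where they have been studied, alter how those receptors signal. The best known members are Ms4a1, the B cell antigen CD20, and Ms4a2, a chain of the IgE receptor of mast cells. Macrophages and microglia carry other members, and variants in the human MS4A4A and MS4A6A region are associated with the level of soluble TREM2 in cerebrospinal fluid, which is why the family is of interest in cells that lack Trem2.

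The study crossed genotype, M-CSF and LPS in 32 libraries of polyadenylated RNA, 4 in each of 8 groups. T2KO cells came from Trem2–/– mice and WT cells from mice with the gene, and both genotypes carry the strain label C57BL/6. M-CSF, the growth factor that macrophages need to survive and divide, was labelled low or normal; the cells were held overnight in medium with 0.5% or 10% LCCM, and no label joins those percentages to the words low and normal. Cells given LPS, the bacterial product sensed by TLR4, received 10 ng/ml for 4 hours. The groups were T2KO with low M-CSF and LPS, WT with low M-CSF and LPS, T2KO and WT with normal M-CSF and LPS, and the same 4 without LPS. In each comparison below n is 4 libraries in each group. Separate mice or cultures behind a group's 4 libraries are not stated in the labels. Each p therefore reflects only the spread between libraries, which may be technical.

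Libraries held 3068863 to 15585423 counts (median 5596111), of which the 5 members took 3462 to 39200 in a library. Trem2 averaged 115 ± 13.9 CPM (a gene's count relative to its library's total, scaled by TMM factors) in T2KO and 460 ± 70.1 CPM in WT cells with low M-CSF and no LPS, and 6.01 ± 2.31 against 332 ± 47.4 CPM with low M-CSF and LPS (SD). It was lower in T2KO cells in all 4 genotype comparisons (log2 fold changes -2.00 and -3.07 without LPS and -5.76 and -5.22 with LPS, in low and normal M-CSF). Reads come from the 3′ end of transcripts, and where the deletion lies relative to the counted end is not given in the sources used here. All 10 macrophage markers looked at had counts in every group, with a summed level of 4730 to 12300 CPM in a library. The B cell marker Pax5, the T cell marker Cd3g and the mast cell markers Mcpt4 and Cma1 were at 0 counts in all 32 libraries, while the B cell marker Cd79b had 560 counts over 30 libraries, the mast cell marker Kit 88 over 21 and the T cell marker Cd3d 27 over 13. In a library the summed markers reached at most 5.44 CPM for B cells, 1.79 CPM for mast cells and 12.7 CPM for T cells, a list that includes Ms4a4b. Neutrophil markers, 7 of 8 found in the table, summed to 148 to 216 CPM in T2KO and 58.1 to 97.1 CPM in WT libraries with low M-CSF and no LPS, and to 226 to 383 CPM in T2KO and 177 to 204 CPM in WT libraries with low M-CSF and LPS. Of 5 monocyte markers tested, 1 was higher and 1 lower in T2KO cells with low M-CSF and no LPS (median log2 fold change 0.24). Ccr2 averaged 144 ± 14.2 CPM in T2KO and 477 ± 36.5 CPM in WT cells there, and Plac8 had 1.79 to 4.10 CPM in T2KO and 0.168 to 0.768 CPM in WT libraries. The part of these markers in the Ms4a values was not tested, and in RNA from bulk cultures fewer cells of a type and less RNA per cell cannot be told apart. In 6 of the 8 groups, libraries numbered 1 and 3 resembled each other, as did 2 and 4, with chi-square values divided by their degrees of freedom of 4.03 to 9.50 within such pairs, against 9.73 to 81.5 across pairs over all groups. In each of the 2 WT groups without LPS it held for 1 pair and not for the other: libraries 2 and 4 with low M-CSF gave 17.8, and libraries 1 and 3 with normal M-CSF gave 37.3. All pairs thus differed beyond sampling noise, which does not show that libraries of a pair came from separate cultures. Each library was nevertheless counted as 1 replicate.

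The 5 measured genes lie within 1 cluster on chromosome 19 (mm10). In order along the chromosome they are Ms4a7 (Entrez 109225, chr19:11321039-11336146), Ms4a4c (64380, chr19:11404717-11427246), Ms4a6c (73656, chr19:11469353-11487182), Ms4a6b (69774, chr19:11518559-11530403) and Ms4a6d (68774, chr19:11586606-11604804). Some of the genes share sequence, which matters for reads counted at the 3′ end. In GENCODE M21 transcripts, 21.2% of the 30-base windows in the last 500 bases of Ms4a4c also occurred in another Ms4a gene, with a longest shared run of 86 bases, in Ms4a4b. For Ms4a6c that share was 15.9%, with a longest run of 96 bases, in Ms4a6b. The last 500 bases of Ms4a6b, Ms4a6d and Ms4a7 shared none of their windows (0%). Over the whole transcript 13.1% of the windows of Ms4a6b, 6.62% of Ms4a6d and 0% of Ms4a7 were shared. Only the longest protein-coding transcript of each member was examined, and not its other annotated ends. How reads that fit more than 1 gene were counted is not given in the sources used here, so by these ends the values of Ms4a4c and Ms4a6c are the less certain ones.

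**Figure D1:**
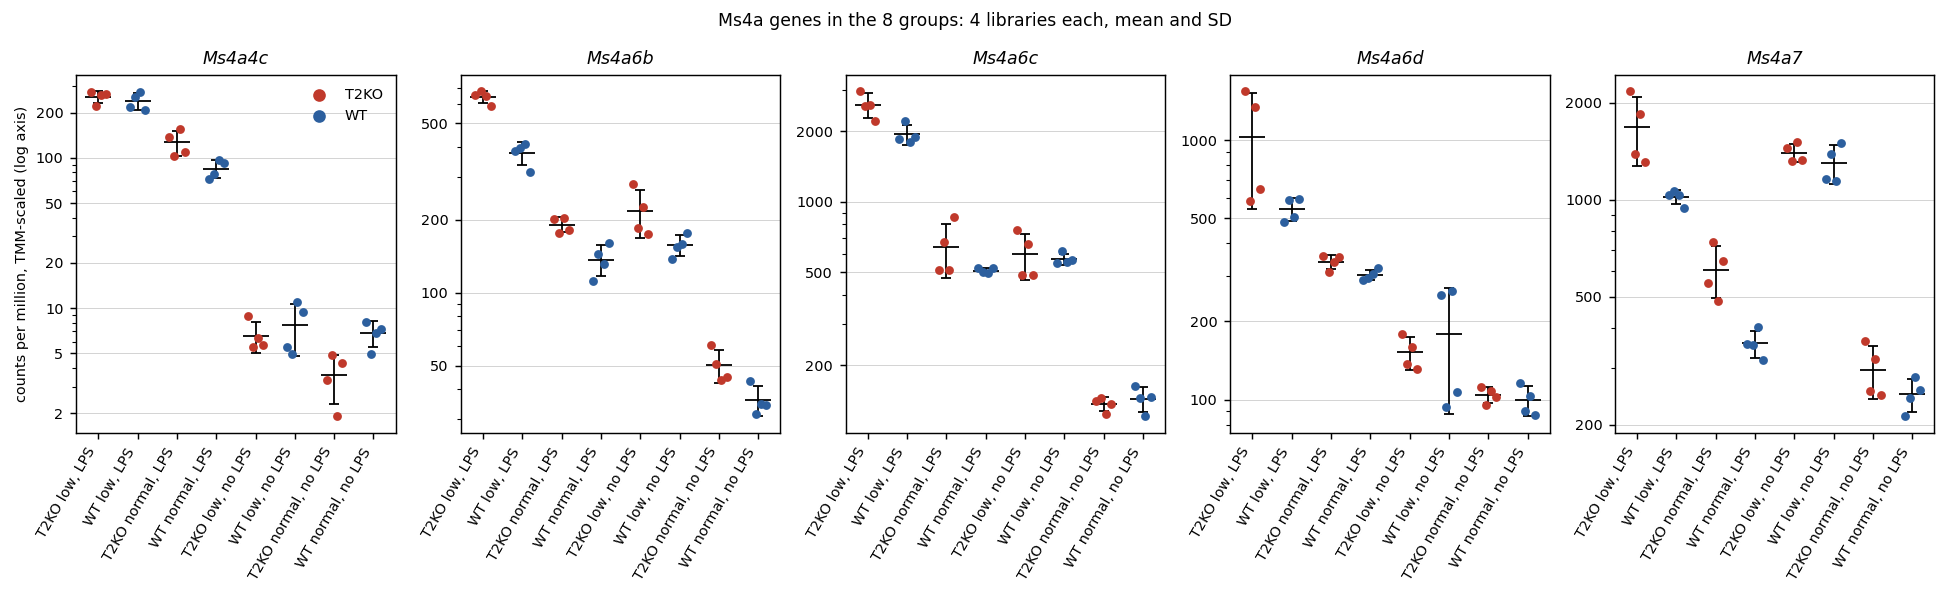
TMM-scaled CPM (log axis) of each measured Ms4a gene in the 8 groups, with points for the 4 libraries of a group and bars for mean and SD; T2KO libraries are red and WT libraries blue. Ms4a4c lay between 72.2 and 276 CPM in all LPS libraries and between 1.91 and 11.0 CPM in all libraries without LPS, while Ms4a7 was at 1143 CPM or above in low M-CSF without LPS and at 363 CPM or below in normal M-CSF without LPS.

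LPS raised nearly the whole family. Of 20 member values over the 4 LPS comparisons, 18 passed the test as higher, none as lower, and 2 did not pass, both for Ms4a7 in low M-CSF. With low M-CSF, 4 of the 5 members were called in T2KO cells, where 67.5% of all 11244 genes tested were called, and 4 in WT cells, where 60.7% were. With normal M-CSF all 5 were called in T2KO cells (42.7% of all genes) and all 5 in WT cells (36.1%). The members' median log2 fold change was 2.11, 1.60, 1.93 and 1.82 in those 4 comparisons, against -0.36, -0.18, -0.05 and -0.04 over all genes tested. Calls throughout are edgeR quasi-likelihood tests with a Benjamini-Hochberg adjusted p under 0.05 over all genes. The LPS comparisons depend on scaling, as do those of low over normal M-CSF with LPS, given below. TMM factors were 0.598 to 0.671 in T2KO and 0.664 to 0.752 in WT libraries with low M-CSF and LPS, and 1.15 to 1.37 in all libraries without LPS. Scaled by total counts alone, the median log2 fold change of all genes in the 4 LPS comparisons moved to -1.30, -0.94, -0.58 and -0.47.

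Ms4a4c, a member reported as interferon-induced in mouse myeloid cells, had the largest LPS response of the 5 in every comparison. In T2KO cells with low M-CSF its 4 libraries had 276, 222, 261 and 265 CPM with LPS and 8.81, 5.52, 6.33 and 5.65 CPM without. In WT cells with low M-CSF they had 217, 254, 276 and 209 CPM with LPS and 5.49, 4.99, 11.0 and 9.40 CPM without. The groups were far apart, with log2 fold changes of 5.31 ± 0.25 in T2KO (SE, adjusted p = 3.6e-20) and 4.97 ± 0.25 in WT cells (adjusted p = 2.7e-19). In normal M-CSF the T2KO libraries had 139, 103, 155 and 110 CPM with LPS and 3.31, 4.86, 1.91 and 4.34 CPM without. The WT libraries had 72.2, 78.1, 97.2 and 92.5 CPM with LPS and 8.16, 4.98, 6.88 and 7.32 CPM without. All T2KO libraries with LPS lay above all WT libraries with LPS, and all T2KO libraries without LPS lay below all WT libraries without LPS. The LPS response was larger in T2KO cells (log2 5.18 ± 0.26) than in WT cells (3.64 ± 0.23), a difference of 1.54 ± 0.33 (adjusted p = 0.016). That was 1 member called among 5 where 0.534% of all genes were called in the genotype-by-LPS term with normal M-CSF. It was lost without T2KO normal M-CSF no-LPS library 3 (1.30, adjusted p = 0.064), the lowest at 1.91 CPM. In that library the gene had 23 counts. The call was also lost when libraries 1 and 3, and 2 and 4, were summed into 2 samples per group (1.56, adjusted p = 0.96).

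Ms4a6b and Ms4a6c are neighbours and share sequence as well as pattern. In mouse T cells Ms4a6b associates with the costimulatory receptor GITR; little is established about Ms4a6c beyond its expression in monocytes and macrophages. Ms4a6b had 653, 677, 650 and 588 CPM in T2KO libraries with low M-CSF and LPS, against 282, 185, 226 and 174 CPM in T2KO libraries with low M-CSF and no LPS. In WT cells with low M-CSF it had 386, 396, 411 and 316 CPM with LPS and 138, 155, 159 and 177 CPM without. LPS and no-LPS libraries did not overlap, and the log2 fold change was 1.57 ± 0.16 in T2KO and 1.26 ± 0.16 in WT cells (adjusted p = 6.9e-11 and 1.2e-08). With normal M-CSF it was 1.93 ± 0.16 in each genotype. Ms4a6c had 2980, 2575, 2582 and 2204 CPM in T2KO libraries with low M-CSF and LPS, against 755, 489, 661 and 486 CPM without LPS. In WT cells with low M-CSF it had 1848, 2225, 1797 and 1894 CPM with LPS and 545, 614, 554 and 562 CPM without. Its LPS response was 3.41-fold to 4.67-fold, with log2 fold changes of 2.11 (T2KO, low), 1.77 (WT, low), 2.22 (T2KO, normal) and 1.82 (WT, normal), each with an SE of 0.16 or 0.17.

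The sequences before the starts of Ms4a6b, Ms4a6c and Ms4a7 are shown because the first 2 genes varied together and the third did not follow LPS in the same way. They come from RefSeq (GRCm38.p6), 5′ to 3′ on the strand of the gene, from 250 bases before the start. For Ms4a6b and Ms4a6c they stop where bases of an annotated Ms4a transcript begin (142 and 211 bases). Capitals mark matches to GAAANNGAA, the core of the interferon-stimulated response element, or its reverse complement.
Ms4a6b, chr19:11518309-11518450, plus strand: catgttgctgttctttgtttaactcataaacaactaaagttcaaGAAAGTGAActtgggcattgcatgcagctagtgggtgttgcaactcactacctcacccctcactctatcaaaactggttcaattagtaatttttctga
Ms4a6c, chr19:11469118-11469328, plus strand: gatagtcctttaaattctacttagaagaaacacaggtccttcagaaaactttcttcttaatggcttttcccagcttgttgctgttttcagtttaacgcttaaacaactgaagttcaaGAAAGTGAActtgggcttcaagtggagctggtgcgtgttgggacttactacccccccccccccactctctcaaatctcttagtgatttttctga
Ms4a7, chr19:11336147-11336396, minus strand: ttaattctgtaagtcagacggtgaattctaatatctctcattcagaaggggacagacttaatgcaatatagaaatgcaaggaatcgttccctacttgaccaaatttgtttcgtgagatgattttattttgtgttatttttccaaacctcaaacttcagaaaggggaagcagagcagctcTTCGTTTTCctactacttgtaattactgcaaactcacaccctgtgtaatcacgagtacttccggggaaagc
The matches of Ms4a6b and Ms4a6c lie 206 and 133 bases before the start, inside 24 bases that are identical in both genes. The longest run the 2 windows share is 48 bases, at -118 to -71 in Ms4a6b and -49 to -2 in Ms4a6c. Most of that run lies past the end of the sequences shown, in bases of annotated Ms4a transcripts. Of the 5 measured members 4 had an entry among the promoters of 250 bases before and 50 after the start; Ms4a6d was without one. An interferon element core was found in Ms4a6b, Ms4a6c and both listed starts of Ms4a7, and in 8.56% of all 32851 promoters. The AP-1 motif TGANTCA was found in the second start of Ms4a7 (7.81% of all promoters). The other motifs searched on both strands had no match in these windows. They were the PU.1 core GAGGAAG (13.6% of all promoters), the NF-kB form GGANTTTCC (1.25%), the MAF half-site TGCTGA (19.5%) and the STAT motif TTCNNNGAA (8.30%). No 2 matches overlapped. Ms4a4c, with the largest LPS response, had no match to any of the 6 motifs in its window. That window (chr19:11407411-11407710) lies within the gene's span given above, which begins at 11404717. The bases before that position were not searched. A match is a run of letters and not a shown binding site.

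Ms4a6d, which in mouse macrophages associates with the complement receptor VSIG4, rose with LPS in all 4 comparisons. In normal M-CSF it had 358, 311, 340 and 353 CPM in T2KO libraries with LPS, against 112, 95.2, 108 and 102 CPM in T2KO libraries without. The WT libraries had 289, 293, 305 and 321 CPM with LPS and 116, 90.4, 103 and 87.4 CPM without. Each group was tight, and the log2 fold changes were 1.71 ± 0.26 and 1.61 ± 0.25 in T2KO and WT cells (adjusted p = 7.9e-07 and 2.6e-06). In low M-CSF the libraries of 2 groups split. T2KO libraries with LPS had 1549 and 1345 CPM in libraries 1 and 3, and 584 and 645 CPM in libraries 2 and 4. WT libraries without LPS had 252 and 263 CPM in libraries 1 and 3, and 94.0 and 107 CPM in libraries 2 and 4. The ratio of libraries 1 and 3 over 2 and 4 was 2.35 and 2.56 in these groups. WT libraries with LPS had 484, 589, 507 and 595 CPM, and T2KO libraries without LPS had 179, 137, 159 and 131 CPM. The fitted LPS response in low M-CSF was 2.77 ± 0.26 in T2KO and 1.60 ± 0.25 in WT cells.

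Ms4a7, a gene high in monocyte-derived and border macrophages and low in resting microglia, differed more between M-CSF levels than with LPS. In T2KO cells with low M-CSF it had 2181, 1384, 1844 and 1312 CPM with LPS and 1445, 1317, 1508 and 1332 CPM without. In WT cells with low M-CSF it had 1036, 1062, 1038 and 946 CPM with LPS and 1161, 1390, 1143 and 1505 CPM without. The T2KO groups overlapped, and the WT libraries with LPS all lay below those without. Neither difference passed (log2 0.26 ± 0.16, adjusted p = 0.15, and -0.35 ± 0.16, adjusted p = 0.062). These values turn on scaling: by total counts alone they were -0.69 and -1.11 (adjusted p = 0.00016 and 1.3e-07), against medians of all genes on that scale of -1.30 and -0.94. With DESeq2 and with RLE size factors the T2KO value was 0.38 and passed (adjusted p = 0.029 and 0.044). The WT value also passed without WT low M-CSF no-LPS library 1 or 3 (-0.45 in each case, adjusted p = 0.03 and 0.029). In normal M-CSF Ms4a7 was higher with LPS, by 1.03 ± 0.16 in T2KO (adjusted p = 2.5e-06) and 0.53 ± 0.16 in WT cells (adjusted p = 0.01). The WT call was lost without WT normal M-CSF no-LPS library 1 (0.44, adjusted p = 0.052), by total counts (0.10, adjusted p = 0.63) and with libraries summed in pairs (0.55, adjusted p = 0.17).

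**Figure D2:**
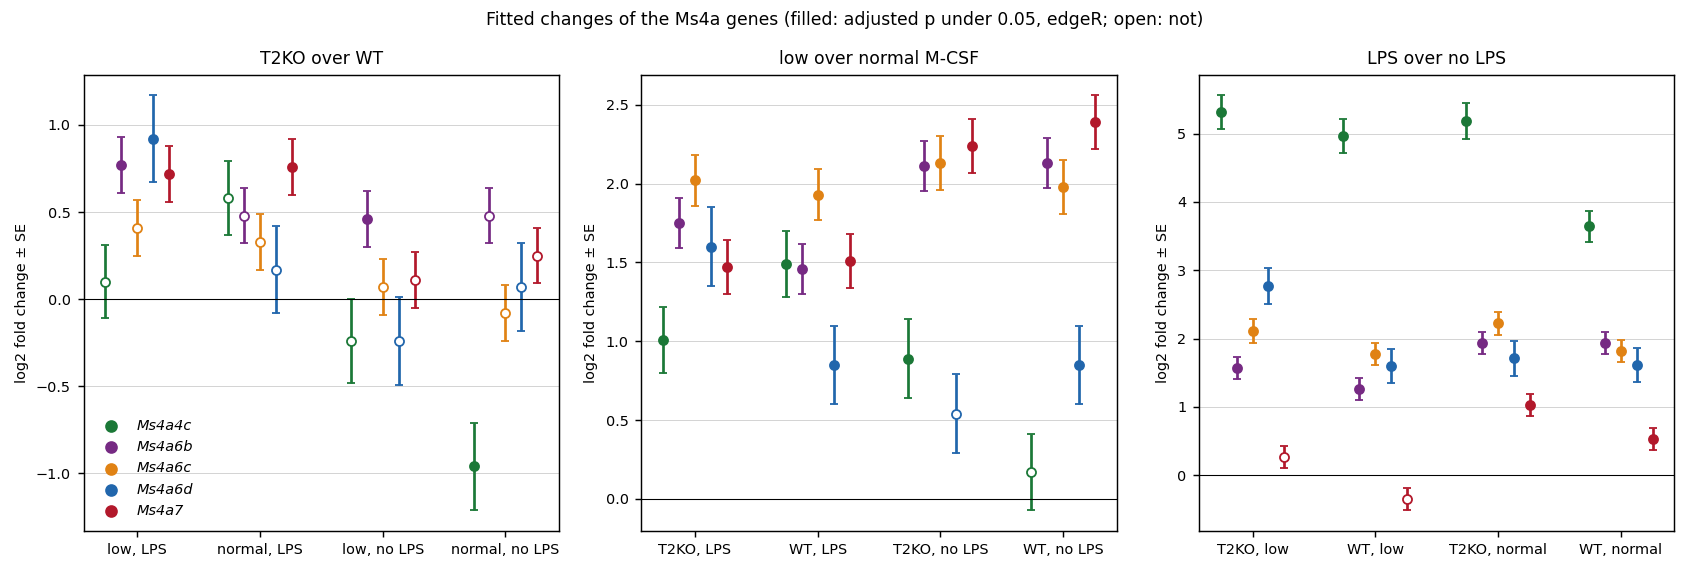
Fitted log2 fold changes with SE of the 5 Ms4a genes, in panels for T2KO over WT, low over normal M-CSF and LPS over no LPS; filled points passed an adjusted p of 0.05. Values for M-CSF all lie above 0, between 0.17 and 2.39, Ms4a4c stands highest in each LPS comparison, and genotype values lie between -0.96 and 0.92.

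Low M-CSF raised the family in both genotypes. All 20 member values of low over normal M-CSF were above 0 and 18 passed the test as higher. Without LPS, 4 members passed in T2KO cells (48.2% of all genes were called) and 4 in WT cells (44.3%). With LPS all 5 passed in T2KO cells (59.2%) and all 5 in WT cells (45.6%). The members' median log2 fold change was 2.11, 1.98, 1.60 and 1.49 in those comparisons, against 0.10, 0.01, -0.14 and -0.10 over all genes. By total counts alone, the medians over all genes were -0.03, -0.12, -0.70 and -0.56.

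Ms4a7 had the highest fitted M-CSF value without LPS, close to those of Ms4a6b and Ms4a6c in T2KO cells. In T2KO cells without LPS its libraries in low M-CSF were those given above, 1317 to 1508 CPM, against 363, 254, 320 and 248 CPM in normal M-CSF. In WT cells they were 1143 to 1505 CPM in low M-CSF, against 213, 243, 282 and 257 CPM in normal M-CSF. There was no overlap, and the log2 fold changes were 2.24 ± 0.17 in T2KO (adjusted p = 1.6e-13) and 2.39 ± 0.17 in WT cells (adjusted p = 1.3e-13). With LPS they were 1.47 ± 0.17 and 1.51 ± 0.17. Ms4a6b and Ms4a6c rose to a like degree without LPS. Ms4a6b averaged 217 ± 48.9 CPM in low and 50.1 ± 7.71 CPM in normal M-CSF in T2KO cells without LPS, a log2 fold change of 2.11 ± 0.16, and 157 ± 16.0 against 36.0 ± 5.11 CPM in WT cells, 2.13 ± 0.16. Ms4a6c averaged 598 ± 133 CPM in low and 137 ± 9.50 CPM in normal M-CSF in T2KO cells (2.13 ± 0.17), and 569 ± 30.6 against 144 ± 17.3 CPM in WT cells (1.98 ± 0.17). With LPS, Ms4a6c averaged 2590 ± 317 CPM in low and 638 ± 164 CPM in normal M-CSF in T2KO cells, and 1940 ± 194 against 508 ± 13.2 CPM in WT cells.

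Without LPS, Ms4a4c and Ms4a6d had the lowest fitted M-CSF values of the 5. Ms4a4c with LPS averaged 256 ± 23.6 CPM in low and 127 ± 24.4 CPM in normal M-CSF in T2KO cells (log2 1.01 ± 0.21, adjusted p = 7.4e-05), and 239 ± 31.5 against 85.0 ± 11.8 CPM in WT cells (1.49 ± 0.21, adjusted p = 4.6e-07). Scaled by total counts, the T2KO value did not pass (0.46, adjusted p = 0.06). Without LPS it passed in T2KO cells (0.89 ± 0.25, adjusted p = 0.004) and not in WT cells (0.17 ± 0.24, adjusted p = 0.59), and the difference of those responses did not pass (0.72 ± 0.35, adjusted p = 0.28). Ms4a6d without LPS gave 0.54 ± 0.25 in T2KO cells (adjusted p = 0.074), where the groups did not overlap. This value passed with no filter (0.56, adjusted p = 0.034), with the 2 groups fitted alone (0.44, adjusted p = 0.028) and with library pair as a block (0.53, adjusted p = 0.045). In WT cells it gave 0.85 ± 0.25 (adjusted p = 0.0057), where libraries 2 and 4 in low M-CSF fell within the normal M-CSF range. With LPS its values were 1.60 ± 0.25 in T2KO and 0.85 ± 0.25 in WT cells (adjusted p = 1.6e-06 and 0.0057), and by total counts the WT value was 0.39 (adjusted p = 0.19). With libraries summed in pairs neither WT value of Ms4a6d passed (0.85 and 0.88 without and with LPS, adjusted p = 0.1 and 0.087).

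Between genotypes fewer members differed, and by less. Of 20 member values of T2KO against WT, 5 passed as higher and 1 as lower. With low M-CSF and no LPS 1 member passed, where 16.7% of all genes were called. With normal M-CSF and no LPS 1 passed (1.86% of all genes), with low M-CSF and LPS 3 passed (19.1%), and with normal M-CSF and LPS 1 passed (4.04%). The members' median log2 fold change was 0.07, 0.07, 0.72 and 0.48, against 0.07, -0.01, -0.05 and 0.00 over all genes. None of the 6 genotype calls passed when libraries 1 and 3, and 2 and 4, were summed into 2 per group (adjusted p = 0.082 to 0.5).

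Ms4a6b had fitted genotype values above 0 in all 4 comparisons, as did Ms4a7. With low M-CSF and LPS the T2KO libraries had 588 to 677 CPM and the WT libraries 316 to 411 CPM, without overlap (log2 0.77 ± 0.16, adjusted p = 0.00063). Libraries 1 and 3 alone gave 0.71 and libraries 2 and 4 alone 0.83 on the log2 scale of their mean CPM. The library numbers did not pair libraries across groups, so such values, here and below, only describe spread. With low M-CSF and no LPS it was higher by 0.46 ± 0.16 (adjusted p = 0.036), but the groups overlapped and the call was lost without T2KO library 1 or 3 or without WT library 1, 2 or 3 (0.31 to 0.48, adjusted p = 0.06 to 0.22). The call was also lost when the 2 groups were fitted alone (0.39, adjusted p = 0.15), with RLE size factors (0.43, adjusted p = 0.06) and with no filter (0.48, adjusted p = 0.073). There libraries 1 and 3 alone gave 0.77 and libraries 2 and 4 alone 0.12. In normal M-CSF its values were 0.48 ± 0.16 with LPS (adjusted p = 0.078) and 0.48 ± 0.16 without (adjusted p = 0.13). In both cases the 4 T2KO libraries lay above the 4 WT libraries, at 177 to 203 against 112 to 160 CPM and at 43.8 to 60.7 against 31.5 to 43.3 CPM. With LPS, libraries 1 and 3 alone gave 0.73 and libraries 2 and 4 alone 0.24, and the value passed with DESeq2 (0.48, adjusted p = 0.025) and with the 2 groups fitted alone (0.47, adjusted p = 0.04).

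Ms4a7 was higher in T2KO than in WT cells with LPS in both media. With low M-CSF the T2KO libraries had 1312 to 2181 CPM and the WT libraries 946 to 1062 CPM (log2 0.72 ± 0.16, adjusted p = 0.0019). With normal M-CSF the T2KO libraries had 552, 741, 485 and 648 CPM, against 357, 353, 403 and 319 CPM in WT libraries (0.76 ± 0.16, adjusted p = 0.0041). The groups did not overlap in either medium. The within-pair values were 0.96 (libraries 1 and 3) and 0.43 (2 and 4) in low M-CSF, and 0.45 and 1.05 in normal M-CSF. Without LPS the values were 0.11 ± 0.16 and 0.25 ± 0.16 in low and normal M-CSF and did not pass (adjusted p = 0.7 and 0.63). Whether the genotype difference of Ms4a7 varied with LPS was tested directly and did not pass, at 0.61 ± 0.23 in low M-CSF (adjusted p = 0.064) and 0.50 ± 0.23 in normal M-CSF (adjusted p = 0.43). The low M-CSF term passed with DESeq2 and with RLE size factors (0.72 in each, adjusted p = 0.013 and 0.034) and without T2KO LPS library 2 or 4 (0.70 and 0.72, adjusted p = 0.043 and 0.028).

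Ms4a6d was higher in T2KO cells with low M-CSF and LPS (0.92 ± 0.25, adjusted p = 0.0082), but this rested on T2KO libraries 1 and 3. Libraries 1 and 3 averaged 1450 CPM in T2KO and 495 CPM in WT libraries, a log2 ratio of 1.55. Libraries 2 and 4 averaged 614 CPM in T2KO and 592 CPM in WT libraries, a log2 ratio of 0.05. The call was lost without T2KO library 1 (0.67, adjusted p = 0.071). In the other 3 conditions the Ms4a6d values were -0.24, 0.07 and 0.17, each with an SE of 0.25, and none passed. Ms4a4c was lower in T2KO cells with normal M-CSF and no LPS, at 3.60 ± 1.30 CPM in T2KO and 6.83 ± 1.34 CPM in WT cells (-0.96 ± 0.25, adjusted p = 0.033). The call was lost without T2KO library 1 or 3 or without WT library 1, 3 or 4 (-0.73 to -0.96, adjusted p = 0.07 to 0.22) and when the 2 groups were fitted alone (-0.95, adjusted p = 0.16). With normal M-CSF and LPS it went the other way, 0.58 ± 0.21, and did not pass (adjusted p = 0.11), except with the 2 groups fitted alone (0.57, adjusted p = 0.032). Ms4a6c passed in none of the 4, with values of 0.07, -0.08, 0.41 and 0.33. The value of 0.41 ± 0.16 with low M-CSF and LPS had an adjusted p of 0.063, which was 0.011 with DESeq2 and 0.031 with RLE size factors (0.48 in each), 0.044 with library size as covariate (0.46), and 0.037 and 0.048 without T2KO library 4 or WT library 2 (0.49 in each).

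**Figure D3:**
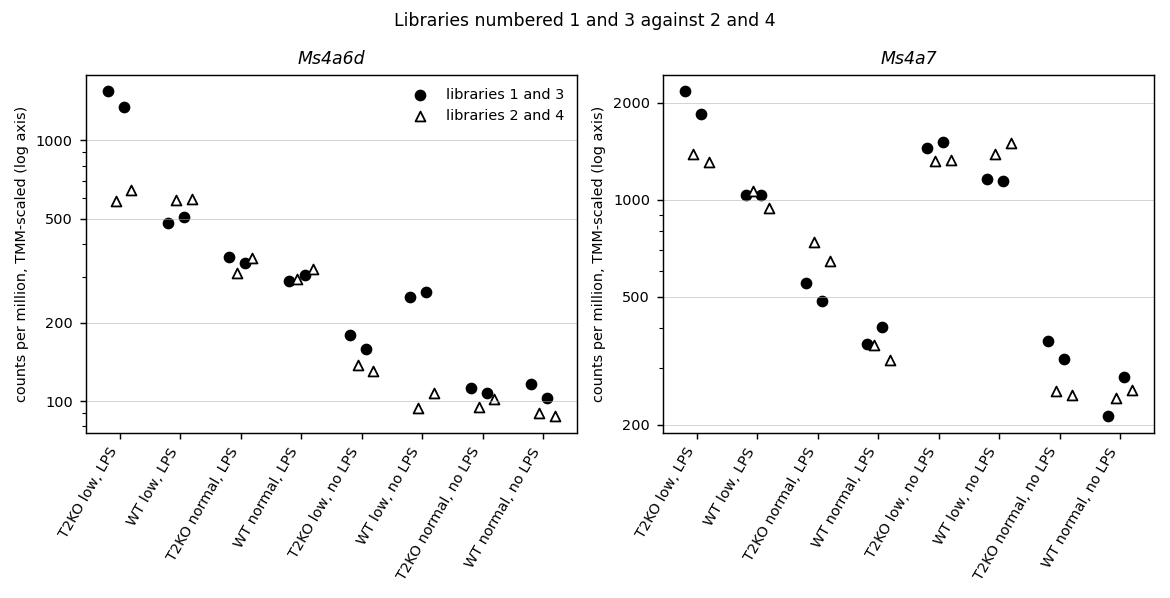
TMM-scaled CPM (log axis) of Ms4a6d and Ms4a7 in the 8 groups, with filled circles for libraries 1 and 3 and open triangles for libraries 2 and 4. For Ms4a6d the circles stand at 1345 and 1549 CPM in T2KO low M-CSF with LPS, above triangles at 584 and 645 CPM, and at 252 and 263 CPM in WT low M-CSF without LPS, above triangles at 94.0 and 107 CPM.

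The tests of differences between responses called 7 member values, and in several terms the share of members called was near that of all genes. Whether the genotype difference varied with M-CSF was called for 0 of 5 members, without LPS (4.62% of all genes called) and with LPS (5.49%), by edgeR and also by DESeq2, and the smallest adjusted p among them was 0.2, for Ms4a6d with LPS. Unadjusted p was under 0.05 for 1 member without LPS, Ms4a4c, and 1 with LPS, Ms4a6d. In low M-CSF the genotype-by-LPS term was called for Ms4a6d, 1 of 5 members (16.0% of all genes), at 1.17 ± 0.35 (adjusted p = 0.022). That call was lost without T2KO low M-CSF LPS library 1 or 3 or without WT low M-CSF no-LPS library 1 or 3 (0.91 to 1.01, adjusted p = 0.058 to 0.08), the libraries that stood high in their groups, and when the 4 groups were fitted alone (1.19, adjusted p = 0.083). In libraries 1 and 3 alone its LPS response was 3.10 in T2KO and 0.94 in WT cells, and in libraries 2 and 4 alone it was 2.20 in T2KO and 2.56 in WT cells. The numbers did not pair libraries across groups, so these values only describe spread. The M-CSF response varied with LPS for 2 of 5 members in T2KO cells (35.3% of all genes) and 3 of 5 in WT cells (23.6%). Over all genes the median of this term was itself below 0, at -0.28 in T2KO and -0.14 in WT cells. By total counts alone it was -0.70 and -0.47. For Ms4a7 the M-CSF response was smaller with LPS in both genotypes, by -0.77 ± 0.23 in T2KO (adjusted p = 0.0093) and -0.88 ± 0.23 in WT cells (adjusted p = 0.0053). Ms4a6b had a smaller M-CSF response with LPS in WT cells (-0.66 ± 0.22, adjusted p = 0.026). It was lost without WT low M-CSF LPS library 4, WT low M-CSF no-LPS library 4, WT normal M-CSF LPS library 4 or WT normal M-CSF no-LPS library 2 (-0.59 to -0.63, adjusted p = 0.05 to 0.064), with RLE size factors (-0.59, adjusted p = 0.055) and with no filter (-0.69, adjusted p = 0.052). In T2KO cells the Ms4a6b value was -0.36 ± 0.22 and did not pass (adjusted p = 0.2). By total counts alone it was -0.79 and passed (adjusted p = 0.0046), against a median of -0.70 over all genes. Ms4a4c went the opposite way in WT cells, with a larger M-CSF response in LPS (1.33 ± 0.32, adjusted p = 0.002). Ms4a6d did so in T2KO cells (1.06 ± 0.35, adjusted p = 0.018), a call lost without T2KO low M-CSF LPS library 1 or 3 (0.80 and 0.90, adjusted p = 0.075 and 0.053) and by total counts (0.62, adjusted p = 0.14). With libraries summed in pairs, of the 7 calls on differences between responses only that of Ms4a4c for M-CSF by LPS in WT cells passed; the others had adjusted p = 0.17 to 0.96. Ms4a6c had no term called, with M-CSF-by-LPS values of -0.11 ± 0.22 in T2KO and -0.05 ± 0.22 in WT cells.

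Across the 8 group means of log2 CPM the members fell into different orders. Ms4a6b and Ms4a6c had a Pearson correlation of 0.98 and Ms4a4c and Ms4a6d one of 0.95, whereas Ms4a4c and Ms4a7 had 0.33 and Ms4a6d and Ms4a7 had 0.55. These 8 points share their libraries, depth and scaling, and the values are descriptions only. Ms4a4c and Ms4a6d ran from LPS groups down to no-LPS groups. For Ms4a4c the 4 LPS groups stood at 256, 239, 127 and 85.0 CPM, with overlap only between T2KO and WT in low M-CSF, and the 4 groups without LPS stood at 3.60 to 7.71 CPM. Ms4a7 ran by M-CSF, with the 4 low M-CSF groups at 1020 to 1680 CPM and the 4 normal M-CSF groups at 249 to 606 CPM. On the TMM scale its T2KO low M-CSF groups with LPS (1680 ± 409 CPM) and without overlapped, as did T2KO (1400 ± 91.5 CPM) and WT (1300 ± 177 CPM) low M-CSF groups without LPS. Per total counts alone the T2KO low M-CSF libraries had 849 to 1303 CPM with LPS and 1542 to 1873 CPM without, so that the order turned. Ms4a6b and Ms4a6c placed low M-CSF without LPS beside normal M-CSF with LPS. Ms4a6b had 217 CPM in T2KO low M-CSF without LPS, 191 CPM in T2KO normal M-CSF with LPS, 157 CPM in WT low M-CSF without LPS and 137 CPM in WT normal M-CSF with LPS, where the first and second of these overlapped, as did the third and the last, and the second lay just above the third (lowest 177.0 and highest 176.8 CPM).

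The genes most like each member over the 8 groups were taken by that correlation, among the 11244 tested. For Ms4a6b they were Tmem176b (0.9881), Rbpms (0.9871) and Tmem176a (0.9831). Tmem176a and Tmem176b encode membrane proteins structurally related to the MS4A family and lie outside its cluster. For Ms4a4c they were Pik3r5, a subunit of PI3-kinase gamma (0.9982), Tnfsf10, the ligand TRAIL (0.9969), and Slc31a2, a copper transporter (0.9966). For Ms4a6d they were Fndc3a, Aff1 and the interferon-induced Ifi207 (0.9973, 0.9956 and 0.9934). For Ms4a6c they were Hook2, Heca and Tmcc3 (0.993, 0.9915 and 0.9912), and for Ms4a7 they were Tmem50a, Mcur1 and Smap2 (0.9936, 0.9874 and 0.9849). No member was among the 3 genes most like another member. By Spearman correlation, where many genes tie at 1, the 3 genes listed first shared 1 gene with these for Ms4a6c and 0 for each of the other 4 members. Ties were ordered by symbol, so this overlap cannot show how the named genes rank by Spearman. The names rest on the Pearson correlation alone. Tmem176b averaged 370 ± 47.3 CPM in T2KO and 320 ± 56.4 CPM in WT cells with low M-CSF and LPS, and 28.3 ± 6.52 against 24.2 ± 9.13 CPM with normal M-CSF and no LPS. Both Tmem176 genes rose with LPS in all 4 LPS comparisons and with low M-CSF in all 4 M-CSF comparisons. In these, 36.1% to 67.5% and 44.3% to 59.2% of all genes were called. As both were among the genes most like Ms4a6b over these same groups, their like direction is no separate result. For Tmem176b the LPS change was 1.10 in T2KO and 1.39 in WT cells with low M-CSF, and 2.16 and 1.71 with normal M-CSF.

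**Figure D4:**
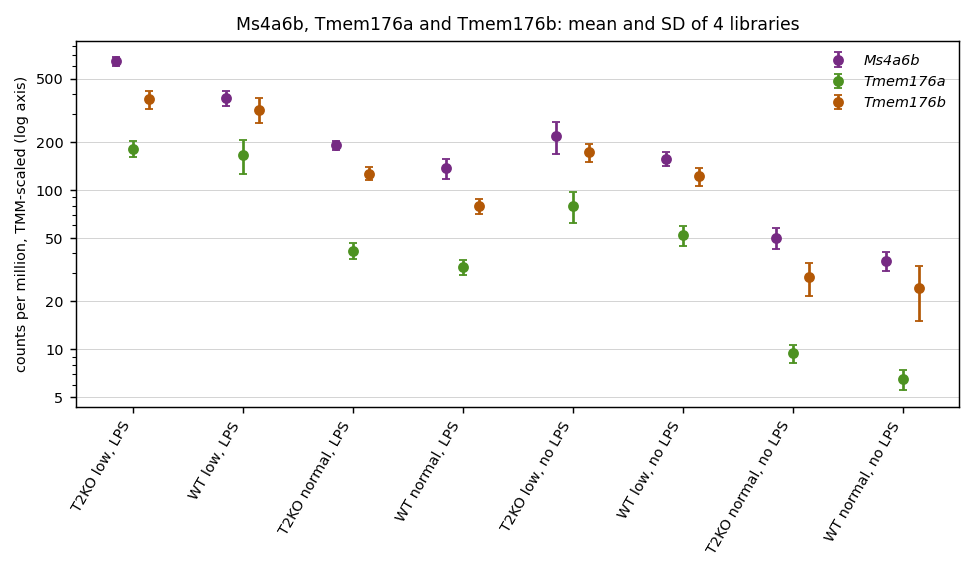
Mean and SD of 4 libraries, in TMM-scaled CPM (log axis), of Ms4a6b and the 2 related genes Tmem176a and Tmem176b in the 8 groups. All 3 are highest in T2KO low M-CSF with LPS (642, 182 and 370 CPM) and lowest in WT normal M-CSF without LPS (36.0, 6.51 and 24.2 CPM).

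Other genes of the family were scarce. Of 15 others looked up, 13 were in the table and 6 of those, Ms4a5, Ms4a10, Ms4a13, Ms4a15, Ms4a18 and Ms4a19, had no count in any library. Ms4a1 had 19 counts over all 32 libraries, Ms4a2 had 4 and Ms4a3, a gene of granulocyte-monocyte progenitors, had 104. Only Ms4a4b, best known in T cells, was tested. It averaged 8.80 ± 3.26 CPM in T2KO and 10.1 ± 1.46 CPM in WT cells with low M-CSF and LPS, and 1.94 ± 0.884 against 1.62 ± 0.911 CPM with normal M-CSF and no LPS. It passed as higher with LPS in 3 of 4 comparisons and with low M-CSF in 3 of 4, in which 36.1% to 67.5% and 44.3% to 59.2% of all genes were called, and it shares a run of 127 bases with the Ms4a4c transcript. Its share of reads from Ms4a4c was not tested.

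Genes of pathways linked to the family were counted for context. Type I interferon acts through its receptor chains Ifnar1 and Ifnar2, the kinases Jak1 and Tyk2, and Irf9 on targets such as Rsad2 and Ifit1. Of 15 listed genes of this response all were tested, and with LPS 15 were higher in T2KO and 14 in WT cells with low M-CSF, and 12 in T2KO and 13 in WT cells with normal M-CSF. Their median log2 fold change was 3.22, 3.11, 2.54 and 2.40 in that order, where 67.5%, 60.7%, 42.7% and 36.1% of all genes were called. Rsad2, the antiviral protein viperin, averaged 50800 ± 11400 CPM in T2KO and 22300 ± 1410 CPM in WT cells with low M-CSF and LPS, and 17600 ± 1860 against 8710 ± 1280 CPM with normal M-CSF and LPS. It was higher in T2KO cells in both (log2 1.19, adjusted p = 0.00013, and 1.02, adjusted p = 0.003). Of the 15, 3 were higher in T2KO than in WT cells with low M-CSF and LPS and 2 with normal M-CSF and LPS, and none was lower, where 19.1% and 4.04% of all genes were called. With low M-CSF 11 of the 15 were higher in T2KO cells without LPS (48.2% of all genes called) and 3 in WT cells, where 2 were lower (44.3%). With LPS 13 were higher in T2KO and 12 in WT cells (59.2% and 45.6%).

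Dectin-1 (Clec7a), the fungal glucan receptor that MS4A4A joins in macrophages, signals through Syk, Card9, Bcl10 and Malt1. Of 6 genes of that route, Plcg2 included, none passed between genotypes without LPS (median -0.11 in low and -0.35 in normal M-CSF). With LPS against no LPS 3 were higher and 2 lower in each genotype with low M-CSF, and 4 were higher in each genotype with normal M-CSF, where 1 was lower in T2KO cells. These counts stand beside 67.5% and 60.7% of all genes called in T2KO and WT cells with low M-CSF, and 42.7% and 36.1% with normal M-CSF. With LPS, Clec7a was higher in T2KO cells in low M-CSF, at 248 ± 32.8 CPM in T2KO and 118 ± 8.27 CPM in WT cells (log2 1.07, adjusted p = 0.0011). It was lower in normal M-CSF, at 33.2 ± 10.7 CPM in T2KO and 80.7 ± 8.50 CPM in WT cells (-1.29, adjusted p = 0.00063). Of the 5 genes of Trem2, its partners Tyrobp and Hcst, and the proteases Adam10 and Adam17 that shed it, only Trem2 passed between genotypes in any condition. Tyrobp averaged 898 ± 145 CPM in T2KO and 1070 ± 127 CPM in WT cells with low M-CSF and LPS. All 5 were higher in low than in normal M-CSF without LPS in each genotype, where 48.2% of all genes were called in T2KO and 44.3% in WT cells. Among 10 tested genes of tissue-resident or alternatively activated macrophages, 4 were higher and 2 lower in T2KO cells with low M-CSF and LPS, with a median of 0.31 against -0.05 over all genes, of which 19.1% were called. The coagulation factor gene F13a1 averaged 1140 ± 109 CPM in T2KO and 298 ± 24.3 CPM in WT cells there (1.93, adjusted p = 5.4e-11), and the mannose receptor gene Mrc1 averaged 780 ± 173 against 284 ± 68.1 CPM (1.46, adjusted p = 7.3e-05). The transcription factor gene Maf averaged 2250 ± 574 CPM in T2KO and 1470 ± 138 CPM in WT cells (0.61, adjusted p = 0.011).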

How the data were processed

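Counts per gene were deposited by the authors, unnormalised, from strand-specific 3′-end libraries without molecular identifiers, per the labels' protocols. STAR, HTSeq and DESeq2 with build mm10 are named per the submitters' processing notes, without versions; the annotation and strand setting are not given in the sources used here. Entrez identifiers were matched to RefSeq symbols (96.3% of identifiers, 99.5% of counts). The members and gene lists were chosen with earlier results of these data known. All 32 libraries were fitted with 8 group means in edgeR 4.0.16 (R 4.3.3; TMM, filterByExpr, quasi-likelihood F tests, two-sided), with Benjamini-Hochberg adjustment over 11244 genes at 0.05. The code was tested on simulated data. SE is the fold change divided by the root of F. The genes named were all members, the tested family genes, the 3 genes most like each member by Pearson correlation over group means (log2 CPM, prior count 2), Trem2, and up to 4 genes of highest mean level per list. Ccr2, Plac8, the B, T and mast cell markers, and family genes under the filter were named after their values were seen. DESeq2 1.42.0, other scalings and filters, other fits and left-out libraries were the alternatives.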

Additional observations from a re-analysis of the deposited data

Results flagged for a closer look

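A response that differed between conditions, by a direct test of the difference in edgeR, was found in 7 cases, given here as log2 differences. With low M-CSF, the LPS response of Ms4a6d was larger in T2KO than in WT cells by 1.17 (adjusted p = 0.022). With normal M-CSF, that of Ms4a4c was larger in T2KO than in WT cells by 1.54 (adjusted p = 0.016). In T2KO cells the low M-CSF response of Ms4a6d was larger with than without LPS by 1.06 (adjusted p = 0.018), and that of Ms4a7 differed by -0.77 (adjusted p = 0.0093). In WT cells the low M-CSF response differed between LPS and no LPS by 1.33 for Ms4a4c (adjusted p = 0.002), by -0.66 for Ms4a6b (adjusted p = 0.026) and by -0.88 for Ms4a7 (adjusted p = 0.0053). Over all genes the median of this difference was -0.28 in T2KO and -0.14 in WT cells. With libraries 1 and 3, and 2 and 4, summed into 2 samples per group, the 1.33 of Ms4a4c in WT cells was the 1 case that passed; the other 6 had adjusted p = 0.17 to 0.96. The 2 Ms4a6d cases involve the groups in which libraries 1 and 3 stood above 2 and 4. Summed, they gave 1.17 (adjusted p = 0.25) and 1.09 (adjusted p = 0.17). The Ms4a6d LPS response in low M-CSF was 3.10 in T2KO and 0.94 in WT cells from libraries 1 and 3, but 2.20 in T2KO and 2.56 in WT cells from libraries 2 and 4. The numbers did not pair libraries across groups, so these values only describe spread. No single library passed Dixon's limit for any of the 5 genes, a test of 1 library against 3 that cannot find a split of 2 against 2.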

How the results depend on the processing

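Over the 5 members and 18 comparisons, 90 results were recomputed under each alternative. The replicate numbers did not pair the libraries (correlations of same-numbered deviations were not all above 0.1 in any comparison). With a replicate block 88 of 90 member results kept direction and call, and 2 near 0 changed sign, Ms4a6b genotype by LPS in normal M-CSF (-0.01) and Ms4a6d M-CSF by LPS in WT cells (0.07). A block for library pairs gave the same 2 values, -0.01 and 0.07, and 1 further call, Ms4a6d low over normal M-CSF in T2KO cells without LPS (0.53). Summing libraries in pairs left 0 members called between genotypes in each of the 4 conditions, 0 in both genotype-by-LPS terms, and 0 in T2KO and 1 in WT cells for M-CSF by LPS. It ended 15 member calls in all, among them Ms4a6d low over normal M-CSF in WT cells without and with LPS and Ms4a7 LPS in WT cells with normal M-CSF. Of 40 group means, only 15 moved by less than 1 SD without TMM factors, and the others, the larger part, moved by 1 SD or more. RLE factors gave 0 for genotype in low M-CSF without LPS and 2 for genotype by LPS in low M-CSF. No filter gave 0 for genotype in low M-CSF without LPS. Fitting the compared groups alone gave 0 for genotype without LPS in low and in normal M-CSF, 3 in normal M-CSF with LPS, and 0 for genotype by LPS in low M-CSF. DESeq2 gave 2 for genotype in normal M-CSF with LPS and 2 for genotype by LPS in low M-CSF.

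The following values changed sign. With RLE factors and with DESeq2, Ms4a7 genotype by M-CSF with LPS was 0.03, Ms4a6c M-CSF by LPS 0.06 in T2KO and 0.03 in WT, and Ms4a6d M-CSF by LPS in WT 0.07. The last was 0.00 with a stricter filter, 0.03 with summed pairs and 0.01 with library size as covariate. Ms4a6b genotype by M-CSF without LPS was 0.00 with no filter and 0.16 with library size, and its genotype by LPS in normal M-CSF was -0.01 with no filter and with groups alone and -0.08 by total counts. Ms4a6c T2KO over WT in low M-CSF without LPS was -0.01 with groups alone. Ms4a4c low over normal M-CSF in WT without LPS was -0.02, and its M-CSF by LPS in T2KO -0.18, with library size. By total counts, added after seeing the data as were the pair block and single pairs, Ms4a4c T2KO over WT in low M-CSF with LPS was -0.07, Ms4a7 LPS in T2KO low M-CSF -0.69, Ms4a6c genotype by M-CSF with LPS -0.01 and Ms4a4c M-CSF by LPS in T2KO -0.30.

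Leaving out single libraries gave, as counts of members called, 0 to 1 and 0 to 1 for genotype without LPS in low and normal M-CSF, 2 to 4 in low M-CSF with LPS, 0 to 2 and 0 to 1 for genotype by LPS in low and normal M-CSF, and 1 to 2 and 2 to 3 for M-CSF by LPS in T2KO and WT. Values that changed sign ranged from -0.17 to 0.09 (Ms4a7 genotype by M-CSF with LPS), -0.06 to 0.16 (Ms4a6c T2KO over WT, low M-CSF, no LPS), -0.21 to 0.06 and -0.14 to 0.00 (Ms4a6c M-CSF by LPS in T2KO and WT), -0.16 to 0.11 and -0.10 to 0.11 (Ms4a6b genotype by M-CSF without LPS and genotype by LPS in normal M-CSF), -0.07 to 0.35 (Ms4a4c M-CSF by LPS in T2KO), -0.22 to 0.22 (Ms4a6d M-CSF by LPS in WT), -0.45 to 0.01 (Ms4a6d T2KO over WT, low M-CSF, no LPS) and -0.03 to 0.34 (Ms4a4c low over normal M-CSF, WT, no LPS). The causes were not tested, except that summing pairs leaves 2 samples per group.

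Counts over all genes moved by over 1.5 times as follows. With summed pairs 621, 39, 485 and 43 genes were called for genotype (low and normal M-CSF without LPS, then with LPS), against 1879, 209, 2147 and 454; 3539 and 2969 for M-CSF without LPS in T2KO and WT, against 5422 and 4983, and 3327 in WT with LPS, against 5132; and 2594 for LPS in WT normal M-CSF, against 4061. The interactions gave 97 and 1 for genotype by M-CSF without and with LPS (519 and 617), 91 and 0 for genotype by LPS in low and normal M-CSF (1800 and 60), and 1702 and 853 for M-CSF by LPS in T2KO and WT (3971 and 2649). DESeq2 gave 346 and 687 for genotype in normal M-CSF without and with LPS, 962 for genotype by M-CSF with LPS and 210 for genotype by LPS in normal M-CSF. Groups alone gave 1037 and 866 for genotype with LPS in low and normal M-CSF, and 959 and 120 for genotype by LPS. For genotype by LPS in normal M-CSF no filter gave 102 and total counts 96, and library size gave 409 for genotype by M-CSF with LPS. By total counts the share of LPS calls that were higher was 17.0% to 21.5%, against 39.2% to 50.6%, and for genotype in low M-CSF with LPS it was 22.6% by total counts and 53.2% with RLE, against 42.9%. For low over normal M-CSF with LPS that share was 23% in T2KO and 19.3% in WT cells by total counts, against 44.7% and 46.9%. Leaving out single libraries gave as few as 222 for genotype in normal M-CSF with LPS, 322 for genotype by M-CSF with LPS and 30 for genotype by LPS in normal M-CSF.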
